A study of Mus musculus with 8 samples.

Results

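Phospholipase C beta and protein kinase C are the enzymes that carry a signal from Gq-coupled receptors into the cell, and 9 genes of these families were followed in E18.5 mouse hearts. They were *Plcb1*, *Plcb2*, *Plcb3* and *Plcb4* (phospholipase C beta), *Prkca* and *Prkcb* (conventional protein kinase C), and *Prkcd*, *Prkce* and *Prkch* (protein kinase C isoforms that need no calcium). Their probes were matched by name, as all array probes whose accession belongs to 1 of these genes, which gave 17 probes of the 41174 on the array and 9 of its 19096 named genes. Hearts were taken from 4 wild-type embryos (WT) and from 4 embryos with a whole-body, germ-line deletion of the deacetylase SIRT1 (SIRT1 KO). All 8 embryos were labelled C57BL/6 (C57BL/6J in the methods), came from heterozygous matings of mice fed a chow diet, and had no further treatment, and the methods state that hearts of both sexes were used. RNA of each whole heart was hybridized to 1 one-color Agilent array. Because the deletion is in the germ line, every cell type of the embryo carries it, and because RNA came from whole hearts, fewer cells of a type and less RNA per cell cannot be told apart.

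When a hormone such as angiotensin II, endothelin or noradrenaline binds a Gq-coupled receptor, the Gq alpha subunit activates phospholipase C beta at the plasma membrane. The enzyme splits the lipid PIP2 into IP3, which releases stored calcium, and diacylglycerol, which stays in the membrane and recruits protein kinase C. Conventional isoforms respond to calcium and diacylglycerol together and the calcium-independent ones here to diacylglycerol alone. In cardiomyocytes this route is best known for its part in hypertrophic growth and in the control of contractility.

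Promoters of 7 of the 9 genes, 9 promoters in all, were matched in the RefSeq table used here (GRCm38.p6), and *Prkce* and *Prkch* were not matched. A promoter here is the 250 bases before and 50 bases after a transcription start. The promoters of *Plcb1*, the gene with a probe past the test's threshold, and of *Plcb4*, which lies downstream of it on chromosome 2 and had no such probe, are shown so that both can be read side by side, at chr2:134785914-134786213 and chr2:135659297-135659596, both on the plus strand. Capitals mark the GC box GGGCGG, the letters bound by the Sp1 family, searched on both strands with overlapping copies counted.
Plcb1: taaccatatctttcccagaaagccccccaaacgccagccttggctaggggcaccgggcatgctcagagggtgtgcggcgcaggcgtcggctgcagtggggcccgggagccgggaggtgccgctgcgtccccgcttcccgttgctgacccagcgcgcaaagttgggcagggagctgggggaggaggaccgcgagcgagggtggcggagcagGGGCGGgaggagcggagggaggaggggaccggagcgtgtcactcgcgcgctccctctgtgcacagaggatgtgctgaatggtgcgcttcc
Plcb4: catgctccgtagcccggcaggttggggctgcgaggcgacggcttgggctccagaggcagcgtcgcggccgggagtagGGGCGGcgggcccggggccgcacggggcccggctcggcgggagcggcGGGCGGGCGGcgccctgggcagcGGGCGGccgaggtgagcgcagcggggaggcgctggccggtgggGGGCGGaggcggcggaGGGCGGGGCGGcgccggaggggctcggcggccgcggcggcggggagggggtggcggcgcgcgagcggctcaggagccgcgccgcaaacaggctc
The *Plcb1* promoter held 1 GC box and the *Plcb4* promoter 7, and both were rich in G and C (69.7% and 84%, against a median of 52.7% over 32851 RefSeq promoters). Over all of these promoters, 35.7% held a GC box. Neither promoter held a CCAAT box (CCAAT, in 37.4% of all promoters), a TATA box (TATAAA, 13.6%), an E-box (CACGTG, 7.15%) or a cAMP response element (TGACGTCA, 1.79%). Of the other members' promoters, 1 at *Prkcd* held 4 GC boxes, a TATA box and an E-box, *Plcb3* held 6 GC boxes, *Prkca* 2, *Prkcb* 1 and *Plcb2* 1. The second promoters of *Plcb4* and *Prkcd* held none of the motifs.

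The values below are log2 of the processed spot intensity minus the 75th percentile of that array, so a value of 0 is a probe as bright as that percentile. Probes differ in how well they bind their target, so the level of a probe is set against that of the same probe only. Between 59.5% and 64.9% of the probes of an array stood well above background and no spot was saturated. The WT arrays share 1 slide and scan and the SIRT1 KO arrays the other, so slide, scan and genotype cannot be told apart. The labels were checked against *Sirt1* itself, whose brighter probe (A_52_P358612) was higher in the hearts labelled SIRT1 KO (log2 fold change 0.54, adjusted p = 0.0323 from limma) and whose other probe (A_51_P141152) had -0.11 (adjusted p = 0.589 from limma), with -0.04 without SIRT1 KO replicate 3 and -0.21 without SIRT1 KO replicate 4. Without scaling between arrays the brighter probe had 0.32 (adjusted p = 0.117 from limma). The call of the brighter probe held in 2 of the 8 fits with a heart left out (adjusted p = 0.0201 to 0.0923 from limma). Where these probes lie relative to the deleted part was not analysed here, and all directions below are those of the hearts as labelled. SIRT1 KO replicate 2 stood apart in sex-linked genes, with *Ddx3y* at -7.79 (A_51_P402994) against 0.78 to 1.04 in the other hearts and *Xist* at 4.02 (A_51_P145453) against -3.26 in SIRT1 KO replicate 3 and -7.46 or less in the others. The Y-linked *Ddx3y* was well above background in all 4 WT hearts and in 3 labelled SIRT1 KO hearts. By these genes the WT hearts read as male and SIRT1 KO replicate 2 as female, so the groups differ in sex. Markers of cardiomyocytes, fibroblasts, endothelium and smooth muscle were all well above background and none passed the threshold. The summed level of 8 cardiomyocyte markers was 10.27 to 10.40 on the log2 scale in WT hearts and 10.44 to 10.65 in the others, with 6 of the 8 genes higher.

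Of the 17 probes, 13 stood well above background on 4 or more of the 8 arrays and were tested, and all 9 genes had at least 1 of them. The remaining 4 probes, A_52_P506930 of *Plcb1*, A_52_P583291 and A_51_P260356 of *Plcb2*, and A_52_P328867 of *Prkcb*, stood above background on none of the arrays. A single probe passed an adjusted p of 0.05 with limma, a *Plcb1* probe that was lower in the hearts labelled SIRT1 KO, whereas 4.88% of the 25616 tested probes passed over the whole array (3.97% higher and 0.91% lower). Of all calls 81.4% were higher, against 38.1% with median scaling and 10% without scaling between arrays, and the *Plcb1* call was lower under each of these. At an unadjusted p under 0.05 there were 3 member probes (21.5% of all probes), and in 2 the genotypes did not overlap (13.7% of all probes). These shares lie near those of the whole array. The median log2 fold change was 0.02 over the 13 probes, with 7 higher and 6 lower, and 0.01 over all tested probes. The split depended on the scaling, with 2 higher and 11 lower with median scaling, which put the median of all probes at -0.12, and with 1 and 12 without scaling, which put it at -0.21. With normexp it was 11 and 2. For 10 of the 13 probes the 95% confidence interval of the difference lay within 1.5-fold in either direction.

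**Figure D1:**
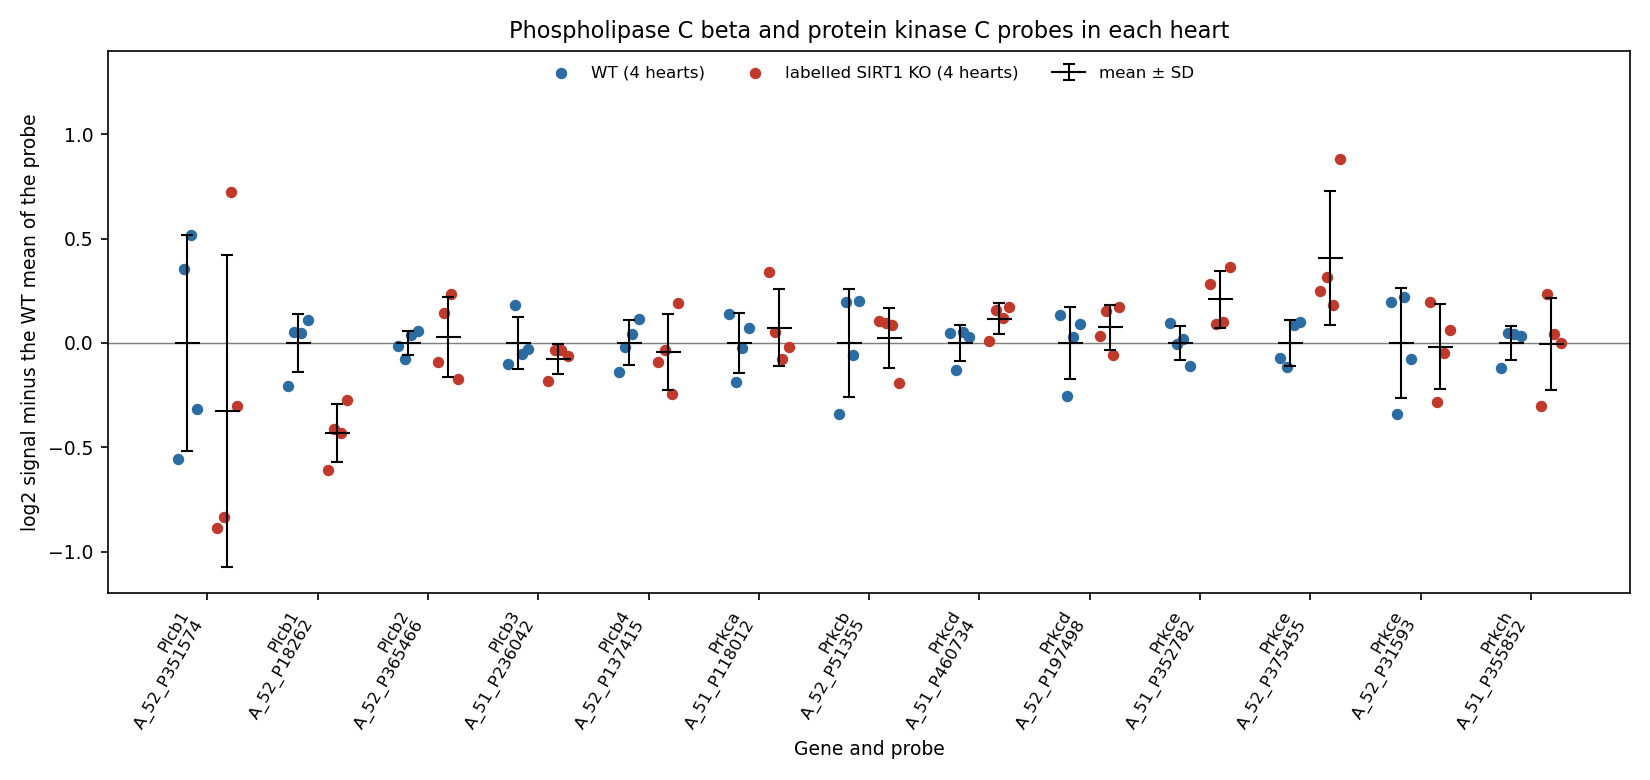
Each point is 1 heart and shows the log2 signal of a probe minus the WT mean of that probe (y axis), for the 13 tested probes (x axis, gene and probe), with WT in blue and hearts labelled SIRT1 KO in red. Black bars give the mean and SD of 4 hearts. The hearts separate by label on the dimmer *Plcb1* probe (A_52_P18262) and on a *Prkce* probe (A_52_P375455), and the *Plcb1* probe A_52_P351574 has the widest spread.

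*Plcb1* encodes the phospholipase C beta isoform most often studied downstream of Gq in cardiomyocytes. Its probe A_52_P18262 read -4.07, -3.81, -3.81 and -3.75 in WT replicates 1 to 4 and -4.47, -4.27, -4.29 and -4.13 in SIRT1 KO replicates 1 to 4. All 4 labelled SIRT1 KO hearts lay below all 4 WT hearts. The means were -3.86 ± 0.14 and -4.29 ± 0.14 (SD, n = 4), and the log2 fold change was -0.43 (limma adjusted p = 0.0444, 95% confidence interval -0.66 to -0.20, SE 0.10). That is a WT signal 1.35-fold that of the hearts labelled SIRT1 KO, with an exact two-sided permutation p = 0.029, the smallest that 8 hearts in groups of 4 can give. When single hearts were dropped, its log2 fold change lay between -0.50 and -0.37 and the adjusted p between 0.0333 and 0.12. The call was kept when WT replicate 1 or SIRT1 KO replicate 4 was dropped and was lost when any of the other 6 hearts was. Without the heart that stood apart in sex-linked genes, the value was -0.44 (adjusted p = 0.1 from limma).

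This *Plcb1* probe was dim. Its processed signal was 61.2 to 73.7 intensity units in WT hearts and 39.7 to 49.3 in the others. The spot itself, before subtraction, read 106 to 115 in WT hearts and 85 to 97 in the hearts labelled SIRT1 KO, over a local background of 43.5 to 53 and 47.5 to 52. These spot signals are not scaled between arrays, and the 75th percentile was 939 to 1033 units on the WT arrays and 777 to 906 on the others. With normexp in place of the scanner software's background correction, the log2 fold change was -0.05 (adjusted p = 0.701 from limma). The call was also lost without the filter on dim probes, with the methods' analysis of variance and with an intensity trend (adjusted p = 0.0886, 0.0907 and 0.0995).

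The brighter *Plcb1* probe, A_52_P351574, read -4.17, -3.26, -3.10 and -3.93 in WT replicates 1 to 4 and -4.50, -4.45, -2.89 and -3.92 in SIRT1 KO replicates 1 to 4. The hearts labelled SIRT1 KO held both the lowest and the highest values, and the groups overlapped. The SD was 0.52 in WT hearts and 0.75 in the hearts labelled SIRT1 KO. The log2 fold change was -0.33 (limma adjusted p = 0.654, 95% confidence interval -1.18 to 0.52, SE 0.38). Without SIRT1 KO replicate 3, the highest heart, it was -0.68, without SIRT1 KO replicate 1, the lowest, it was -0.14, and without SIRT1 KO replicate 2 -0.16, with no adjusted p under 0.173. The third probe, A_52_P506930, gave a processed signal of 4.66 to 6.25 units over the 8 arrays and has no usable difference.

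The other phospholipase C beta genes showed no difference past the threshold. *Plcb2* is known chiefly from blood cells, where it also responds to the G protein beta-gamma subunits. On its tested probe, A_52_P365466, the values were -1.82, -1.88, -1.77 and -1.75 in WT replicates 1 to 4 and -1.89, -1.66, -1.57 and -1.98 in SIRT1 KO replicates 1 to 4. The labelled SIRT1 KO values spread over more than the WT values and enclosed them. Between the genotypes *Plcb2* differed by a log2 fold change of 0.03 (limma adjusted p = 0.893, 95% confidence interval -0.20 to 0.26, SE 0.10).

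*Plcb3* is broadly expressed and is activated by Gq and by beta-gamma subunits. Its probe A_51_P236042 read -2.48, -2.20, -2.43 and -2.41 in WT replicates 1 to 4 and -2.56, -2.41, -2.42 and -2.44 in SIRT1 KO replicates 1 to 4. The 2 groups overlapped, with the highest value in a WT heart. For *Plcb3* the log2 fold change was -0.08 (limma adjusted p = 0.631, 95% confidence interval -0.26 to 0.11, SE 0.08). It was -0.02 without WT replicate 2.

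*Plcb4* is best known from the cerebellum and the retina. Its probe A_52_P137415 read -2.44, -2.32, -2.26 and -2.19 in WT replicates 1 to 4 and -2.39, -2.34, -2.55 and -2.11 in SIRT1 KO replicates 1 to 4. The labelled SIRT1 KO hearts held the lowest and the highest value. For *Plcb4* it was -0.04 (limma adjusted p = 0.847, 95% confidence interval -0.28 to 0.19, SE 0.10).

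Among the conventional isoforms, *Prkca* is a known regulator of cardiac contractility. Its probe A_51_P118012 read -1.60, -1.93, -1.76 and -1.67 in WT replicates 1 to 4 and -1.40, -1.68, -1.81 and -1.76 in SIRT1 KO replicates 1 to 4. The groups overlapped, with a single labelled SIRT1 KO heart above all WT hearts. Its log2 fold change was 0.07 (limma adjusted p = 0.742, 95% confidence interval -0.18 to 0.33, SE 0.11).

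*Prkcb*, a conventional isoform known for its role in B cell receptor signaling, was measured on 1 of its 2 probes. That probe, A_52_P51355, read -2.80, -2.26, -2.52 and -2.26 in WT replicates 1 to 4 and -2.36, -2.37, -2.37 and -2.65 in SIRT1 KO replicates 1 to 4. WT hearts held the lowest and the highest value, and SIRT1 KO replicate 4 lay below the other 3 hearts of its group. On average *Prkcb* had a log2 fold change of 0.02 (limma adjusted p = 0.938, 95% confidence interval -0.28 to 0.33, SE 0.13). Markers of B and T cells were mostly at background, with *Cd79a*, *Cd3e*, *Cd3g*, *Cd4* and *Cd8a* each well above it on at most 1 of the 8 arrays. *Cd79b* and *Lck* stood well above it on all 8.

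*Prkcd*, a calcium-independent isoform linked to cell death after ischemia, had 2 tested probes that both overlapped between the groups. The brighter, A_51_P460734, read 0.41, 0.23, 0.41 and 0.39 in WT replicates 1 to 4 and 0.37, 0.52, 0.48 and 0.53 in SIRT1 KO replicates 1 to 4. WT replicate 2 was the lowest heart, and 3 of the 4 labelled SIRT1 KO hearts lay above all WT hearts. The log2 fold change was 0.12 (limma adjusted p = 0.407, 95% confidence interval -0.05 to 0.29, SE 0.08). Without WT replicate 2 it was 0.07. The other probe, A_52_P197498, read -1.07, -1.46, -1.18 and -1.11 in WT replicates 1 to 4 and -1.17, -1.05, -1.26 and -1.03 in SIRT1 KO replicates 1 to 4. Its log2 fold change was 0.08 (limma adjusted p = 0.71, 95% confidence interval -0.16 to 0.31, SE 0.10). Both *Prkcd* values were positive and neither interval excluded 0, and both were below 0 with median scaling (-0.01 and -0.05) and without scaling between arrays (-0.10 and -0.14).

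*Prkce*, a calcium-independent isoform known for its part in the protection of the heart by ischemic preconditioning, had 3 tested probes. The brightest, A_51_P352782, read 1.88, 1.79, 1.81 and 1.68 in WT replicates 1 to 4 and 2.07, 1.88, 1.89 and 2.16 in SIRT1 KO replicates 1 to 4. A single WT heart lay above the lowest labelled SIRT1 KO heart, and apart from that pair the groups were separate. The fitted log2 fold change was 0.21 (limma adjusted p = 0.211, 95% confidence interval 0.01 to 0.41, SE 0.09). Without scaling between arrays it was -0.01.

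A second *Prkce* probe, A_52_P375455, read -2.65, -2.69, -2.49 and -2.47 in WT replicates 1 to 4 and -2.33, -2.26, -2.39 and -1.70 in SIRT1 KO replicates 1 to 4. Here all labelled SIRT1 KO hearts lay above all WT hearts, and replicate 4 was the highest. Its log2 fold change was 0.41 (limma adjusted p = 0.165, 95% confidence interval 0.07 to 0.75, SE 0.15). The exact two-sided permutation p was 0.029. It was 0.25 without SIRT1 KO replicate 4 and between 0.37 and 0.48 without any other heart. With normexp it passed the threshold (0.34, adjusted p = 0.0487 from limma), the only alternative under which it did so.

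The third *Prkce* probe, A_52_P31593, was dim and read -5.07, -5.60, -5.04 and -5.33 in WT replicates 1 to 4 and -5.06, -5.54, -5.31 and -5.20 in SIRT1 KO replicates 1 to 4. It was well above background in 4 WT hearts and in 3 of the 4 others, and the groups overlapped. On this probe the log2 fold change was -0.02 (limma adjusted p = 0.958, 95% confidence interval -0.35 to 0.32, SE 0.15).

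*Prkch*, a calcium-independent isoform known from epithelia and T cells, was measured on 1 probe. The probe A_51_P355852 read -1.76, -1.59, -1.60 and -1.60 in WT replicates 1 to 4 and -1.94, -1.40, -1.59 and -1.64 in SIRT1 KO replicates 1 to 4. The labelled SIRT1 KO hearts held the lowest and the highest value. For *Prkch* the difference came to a log2 fold change of -0.01 (limma adjusted p = 0.985, 95% confidence interval -0.26 to 0.25, SE 0.11).

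**Figure D2:**
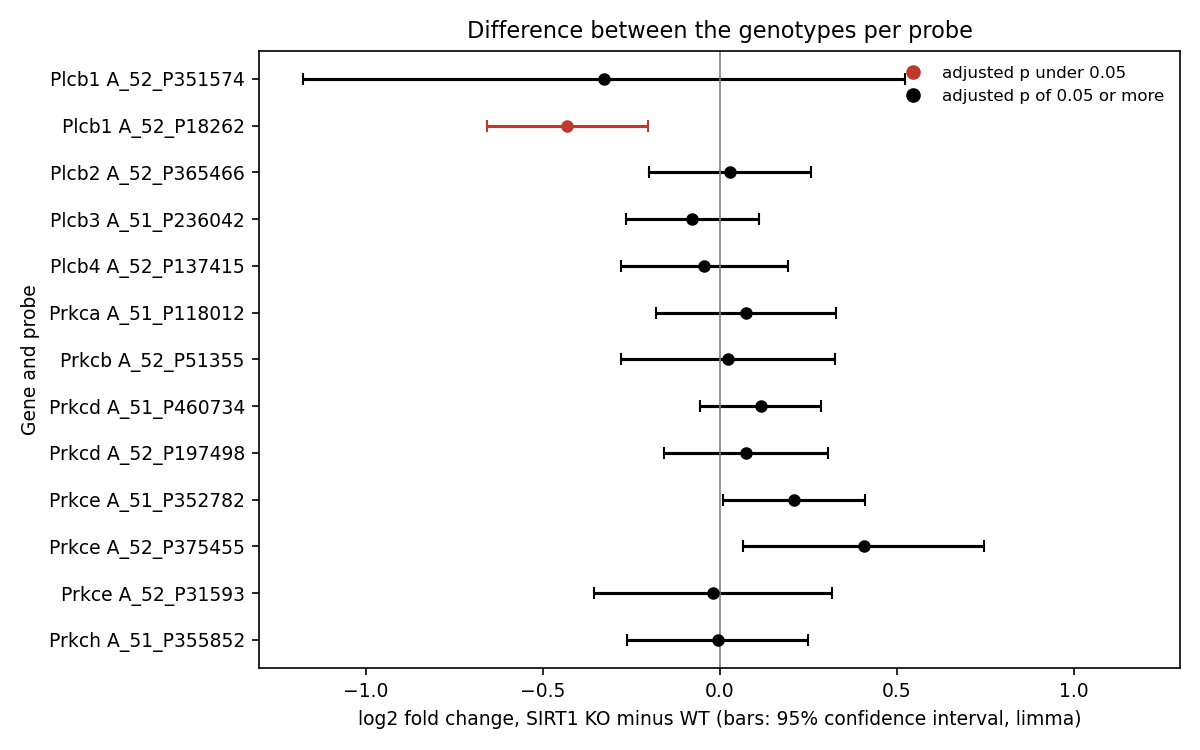
Points give the log2 fold change of the 13 tested probes, hearts labelled SIRT1 KO minus WT (x axis), and bars its 95% confidence interval from limma, with genes and probes on the y axis. The *Plcb1* probe A_52_P18262 at -0.43 is drawn in red as the 1 probe with an adjusted p under 0.05, and the interval of the other *Plcb1* probe runs from -1.18 to 0.52.

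Probes of 1 gene can read different transcripts of it, so each further tested probe was compared with the brightest probe of its gene, heart by heart. The gap between both *Plcb1* probes changed by -0.10 between the genotypes (exact two-sided permutation p = 0.8), and that between both *Prkcd* probes by -0.04 (p = 0.514, exact permutation test). For *Prkce* the gap changed by 0.20 for A_52_P375455 (p = 0.2, exact permutation test) and by -0.23 for A_52_P31593 (p = 0.171, exact permutation test). After Benjamini-Hochberg adjustment over the 4 comparisons the p-values were 0.8, 0.686, 0.4 and 0.4 (exact permutation tests). The smallest p of this design is 0.029, so no comparison could have passed 0.05 by itself after that adjustment. The *Plcb1* gap had an SD of 0.45 in WT hearts and 0.72 in the others.

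The 3 genes that followed each of 3 members most closely from heart to heart were found by Pearson's r over the 8 arrays, with the mean of each genotype removed, among 13527 genes. For the *Plcb1* probe A_52_P18262 they were *Gmds* (r = 0.987), *Homer1* (0.985) and *Il16* (0.981). For the *Prkce* probe A_52_P375455 they were *Cdyl* (0.995), *Baz2b* (0.990) and *Stk10* (0.987), and for the *Prkcd* probe A_51_P460734 *Rasgrp2* (0.970), *Slc20a2* (0.961) and *Sspn* (0.957). For the widely spread *Plcb1* probe A_52_P351574, added after its values were seen, they were *Map3k21* (0.984), *Ankrd13a* (0.975) and *Pkig* (0.973). These are the highest of 13527 values over 8 arrays, and all of the probes of an array share its labeling and slide position.

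**Figure D3:**
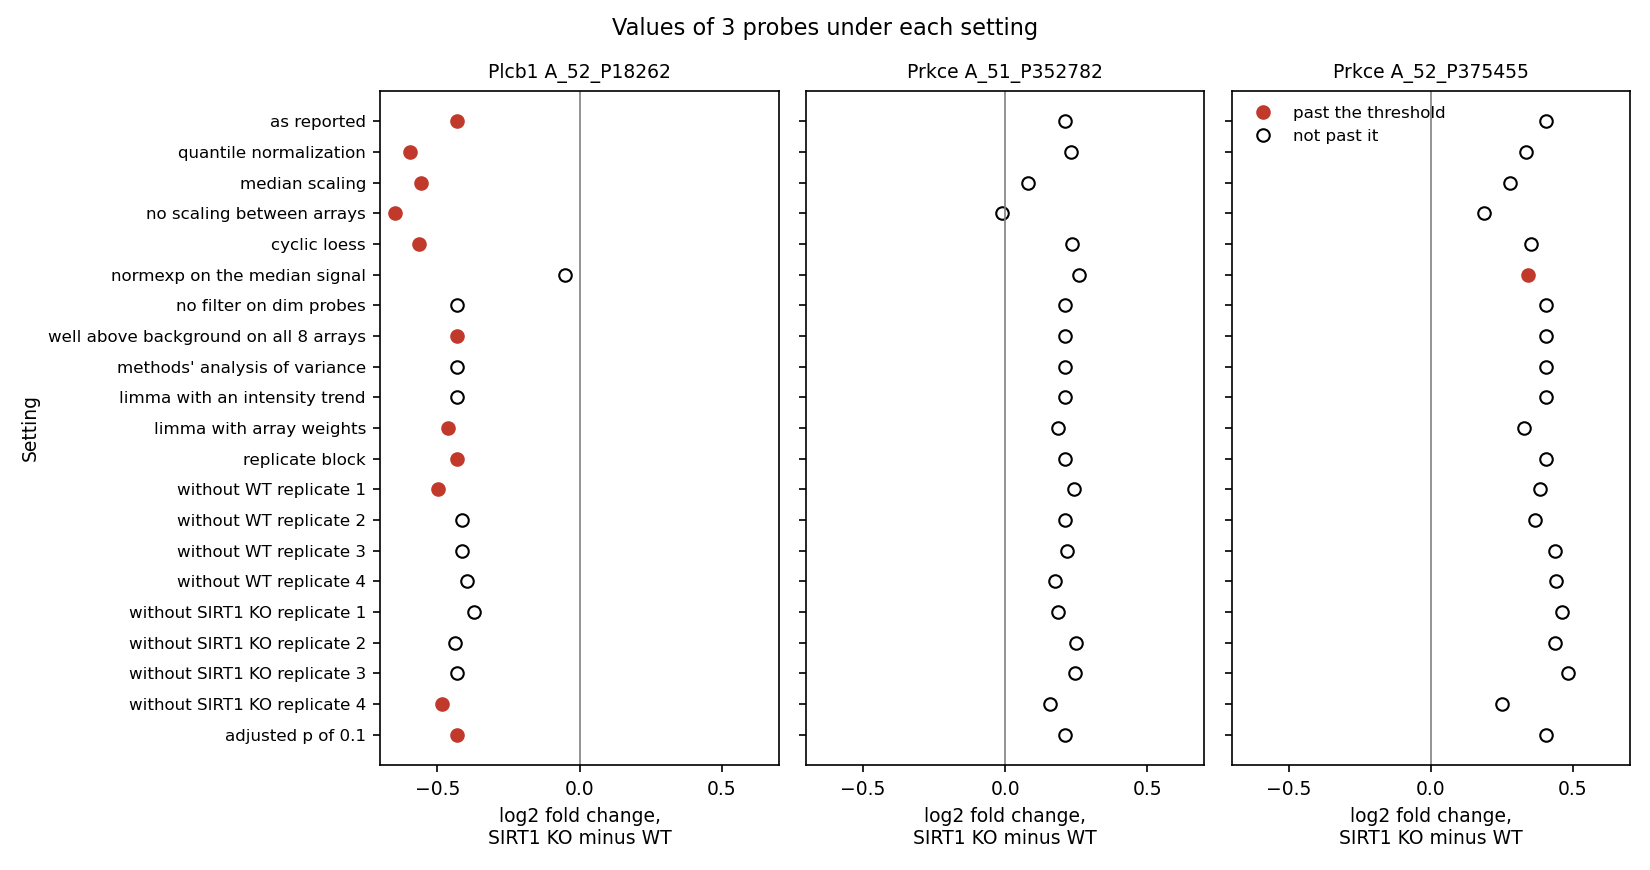
Each row is a setting of the analysis and each panel 1 probe, with the log2 fold change, hearts labelled SIRT1 KO minus WT, on the x axis. Red points passed the threshold of that setting and open points did not. The *Plcb1* probe A_52_P18262 is negative in every row and at -0.05 with normexp, and the *Prkce* probe A_52_P375455 is positive in every row, at 0.19 without scaling between arrays.

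The wider pathway was described with 10 lists of 135 other genes, taken from general knowledge of the route, of which 134 were on the array and 113 were tested on the brightest probe of the gene. Hearts labelled SIRT1 KO were higher for 52 genes and lower for 61, with a median log2 fold change of -0.02, and with median scaling 28 were higher and 85 lower. The threshold was passed by 7 genes (6.19%), all of them higher, against 4.58% of the 13594 genes tested over the whole array (3.69% higher and 0.897% lower). With the probe brightest in WT hearts in place of the one brightest over all hearts, which changed the probe of *Pdpk1* alone, 6 genes passed. With the filter on all 8 arrays, which *Rasgrp4* did not meet, 6 were also higher past the threshold. An unadjusted p under 0.05 was reached by 29.2% of the 113 genes and by 20.4% of the 13594. Median scaling moved the log2 fold change of a probe by a median of -0.13 and no scaling by -0.22, so positive values smaller than these turn negative there and negative ones grow. With median scaling 3 were higher and 6 lower past the threshold, and without scaling 4 and 26. Without SIRT1 KO replicate 2, the heart that stood apart in sex-linked genes, 2 were higher and 1 lower. None was lower past the threshold by limma, with 13 lower at an unadjusted p under 0.05 (8.1% of all tested probes were), and the methods' analysis of variance also gave 0.

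**Figure D4:**
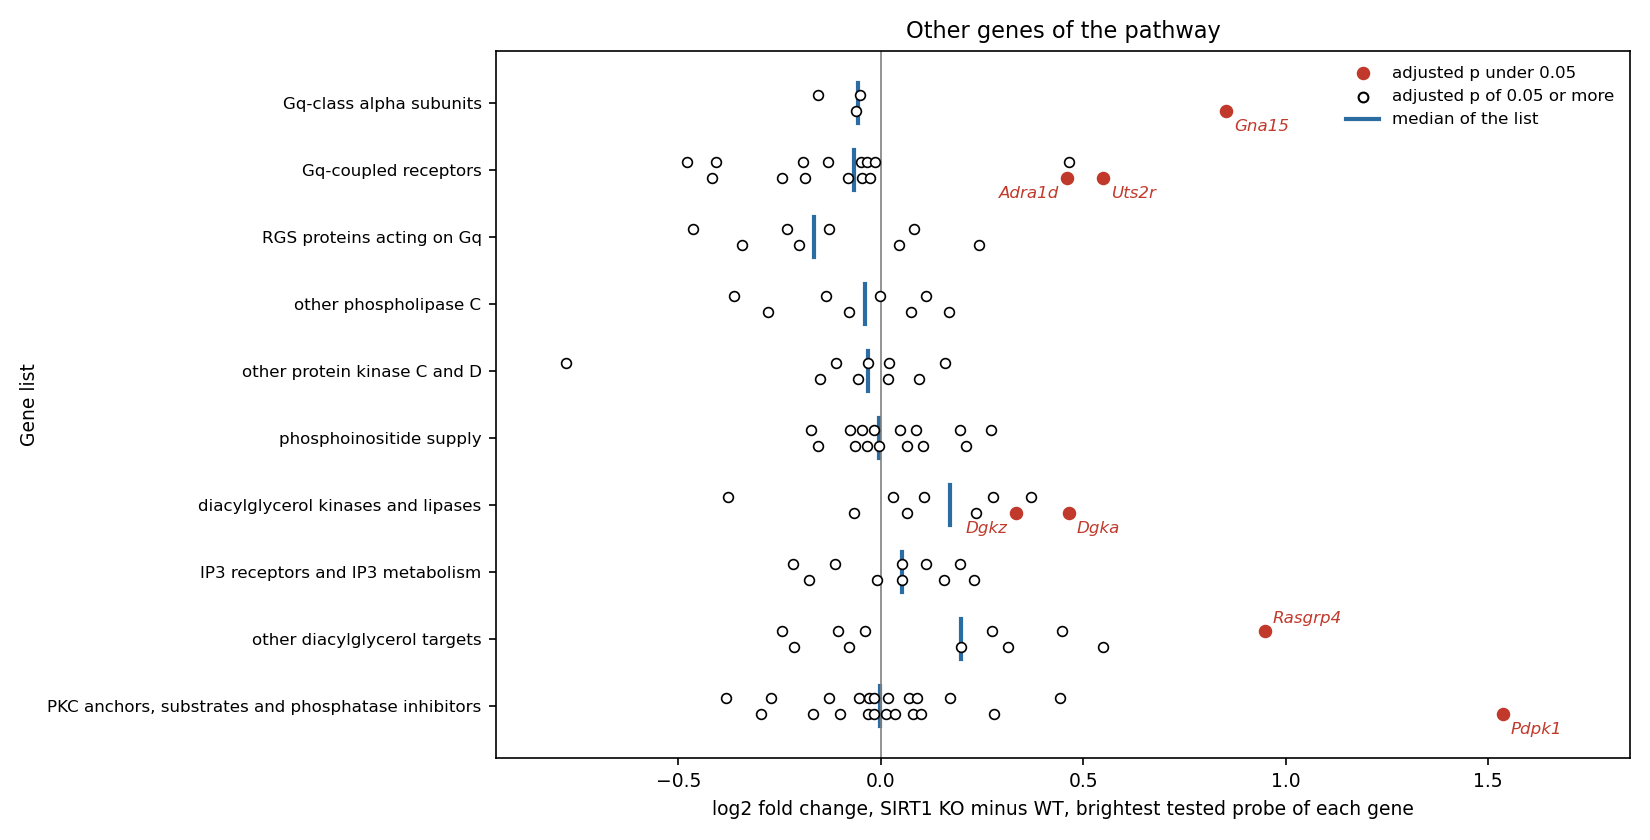
Each point is a gene of the pathway at its log2 fold change, hearts labelled SIRT1 KO minus WT, on its brightest tested probe (x axis), in the list given on the y axis. Red points passed an adjusted p of 0.05 and blue bars mark the median of a list. The 7 red points all lie above 0.

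Upstream of phospholipase C beta, the alpha subunits that activate it had 1 of 4 genes past the threshold and the other 3 lower. *Gna15*, the promiscuous alpha subunit of blood cells, read -4.99, -4.77, -4.82 and -4.70 in WT replicates 1 to 4 and -3.88, -3.87, -3.60 and -4.52 in SIRT1 KO replicates 1 to 4 on probe A_52_P51024. This probe was dim, with a WT mean of -4.82. All labelled SIRT1 KO hearts lay above all WT hearts, the log2 fold change was 0.85 (limma adjusted p = 0.0291, SE 0.18), and the call held in 2 of the 8 fits with a heart left out, those without SIRT1 KO replicate 3 and SIRT1 KO replicate 4 (adjusted p = 0.00305 to 0.0786 from limma). The *Gna15* call was lost with quantile normalization, with cyclic loess, without the filter on dim probes and with the methods' analysis of variance. It was also lost with the replicate number as a block, and it was kept at 0.44 with normexp. *Gnaq* and *Gna11*, the subunits of most tissues, had -0.05 and -0.06 (adjusted p = 0.801 and 0.685 from limma), and *Gna14* had -0.16 (adjusted p = 0.464 from limma), or -0.06 without SIRT1 KO replicate 4. For *Gna14*, 1 of 20 alternatives passed the threshold. Markers of macrophages and myeloid cells had a summed level of 0.63 to 1.13 in WT hearts and 0.59 to 1.41 in the others, with 5 of 7 tested, all 5 higher and none past the threshold, *Cd68* at 0.64 with no overlap of the groups (adjusted p = 0.133 from limma), *Spi1* on no array and *Itgam* on 2 arrays above background, and their part in the *Gna15* value was not tested.

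Of 25 Gq-coupled receptors, 16 were tested, 3 higher and 13 lower, with a median of -0.07 and 2 past the threshold. *Uts2r*, the receptor of urotensin II, read -3.63, -3.56, -3.59 and -3.57 in WT replicates 1 to 4 and -3.33, -2.97, -2.99 and -2.87 in SIRT1 KO replicates 1 to 4 on probe A_51_P292016. No labelled SIRT1 KO heart fell among the WT hearts, with a log2 fold change of 0.55 (limma adjusted p = 0.0187, SE 0.10), and the call held in 4 of the 8 fits with a heart left out, those without WT replicate 4, SIRT1 KO replicate 1, SIRT1 KO replicate 3 and SIRT1 KO replicate 4 (adjusted p = 0.0076 to 0.0578 from limma). The *Uts2r* call was lost with quantile normalization and with the methods' analysis of variance, and it was kept at 0.33 without scaling between arrays. *Adra1d*, an alpha-1 adrenergic receptor of vascular smooth muscle, read -3.91, -3.73, -3.66 and -3.62 in WT replicates 1 to 4 and -3.23, -3.18, -3.19 and -3.47 in SIRT1 KO replicates 1 to 4 on probe A_51_P252534. Every WT heart was lower, the log2 fold change was 0.46 (limma adjusted p = 0.0294, SE 0.10), and the call held in 3 of the 8 fits with a heart left out, those without WT replicate 4, SIRT1 KO replicate 3 and SIRT1 KO replicate 4 (adjusted p = 0.0171 to 0.0852 from limma). The *Adra1d* call was lost with quantile normalization, with median scaling, without scaling between arrays (0.24, limma adjusted p = 0.107) and with cyclic loess. It was also lost without the filter on dim probes, with the methods' analysis of variance, with an intensity trend and with the replicate number as a block. The *Uts2r* and *Adra1d* probes were dim, with WT means of -3.59 and -3.73. Smooth muscle and pericyte markers had a summed level of 7.13 to 7.42 in WT hearts and 7.06 to 7.55 in the others, with 2 of 6 higher and none past the threshold.

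None of the 8 tested proteins that switch Gq off or bind it passed the threshold (limma), 5 of them lower and 3 higher, with a median of -0.17 and 4 at an unadjusted p under 0.05. *Rgs4*, which speeds GTP hydrolysis by Gq and Gi, had -0.46 on overlapping values (adjusted p = 0.124 from limma) and passed with median scaling (-0.59) and without scaling (-0.68), but had -0.10 with normexp. Its other probe, A_51_P224903, was well above background in 1 labelled SIRT1 KO heart and no WT heart and was not tested. *Grk3*, a receptor kinase that also binds Gq, had 0.24 (adjusted p = 0.146 from limma), or 0.02 without scaling. Its dimmer tested probe, A_51_P222324, had 0.08 (adjusted p = 0.793 from limma).

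The phospholipase C enzymes outside the beta family gave 8 tested genes of 14, 3 higher and 5 lower, and none passed. *Plcg2*, the isoform of blood cells that tyrosine kinases activate, had -0.36 on overlapping values (adjusted p = 0.094 from limma) and passed with median scaling (-0.49), without scaling (-0.58), with array weights (-0.38) and without SIRT1 KO replicate 3 (-0.44). *Plce1*, which Ras and Rap regulate, had -0.13 (adjusted p = 0.332 from limma), or -0.35 without scaling, where it passed, and its dimmer probe 0.18 (adjusted p = 0.482 from limma).

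Among the 9 other genes of the protein kinase C, D and N families, 4 were higher and 5 lower, and none passed the threshold (limma), with 1 at an unadjusted p under 0.05. *Prkcq*, the isoform of T cells and skeletal muscle, read -3.05, -4.03, -4.06 and -4.13 in WT replicates 1 to 4 and -4.38, -4.50, -4.65 and -4.86 in SIRT1 KO replicates 1 to 4 on probe A_52_P72587. The groups did not overlap, WT replicate 1 was far above the other WT hearts, and the log2 fold change was -0.78 (limma adjusted p = 0.0987, SE 0.23). It was -0.52 without WT replicate 1 and -0.08 with normexp. It passed the threshold with median scaling (-0.91), without scaling between arrays (adjusted p = 0.0261 from limma) and with the replicate number as a block. Of the 7 B and T cell markers described here 2 were tested. *Lck* had -0.70, with all labelled SIRT1 KO hearts below all WT hearts (adjusted p = 0.068 from limma). *Cd79b* had -0.02 on overlapping values (adjusted p = 0.942 from limma). The summed level of these markers was -2.42 to -2.08 in WT hearts and -2.53 to -2.36 in the others, and their part in the *Prkcq* value was not tested. The atypical isoforms *Prkci* and *Prkcz*, which respond to neither calcium nor diacylglycerol, had 0.02 and 0.09, and the protein kinase D genes *Prkd1*, *Prkd2* and *Prkd3* had 0.02, -0.06 and 0.16 (-0.06 for *Prkd3* without scaling between arrays). The dimmer *Prkd3* probes, A_52_P669996 and A_51_P106397, had -0.13 each (adjusted p = 0.403 and 0.428 from limma).

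The enzymes that supply PIP2 had 15 tested genes, 7 higher and 8 lower. Their log2 fold changes ran from -0.17 to 0.27 with none past the threshold. *Cds2*, which makes the CDP-diacylglycerol used to rebuild the lipid, had 0.27 on its brightest probe (adjusted p = 0.147 from limma) and between -0.16 and 0.23 on the other 3, with 0.14 and 0.05 on the brightest with median scaling and without scaling. *Pip5k1c*, a kinase that makes PIP2, had 0.21 (adjusted p = 0.211 from limma), or 0.08 with median scaling.

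Diacylglycerol kinases and lipases, which remove the activator of protein kinase C, had 10 tested genes, 8 higher and 2 lower (5 and 5 with median scaling), with 2 past the threshold and a median of 0.17, or 0.04 with median scaling and -0.05 without scaling. *Dgka*, a kinase that turns diacylglycerol into phosphatidic acid, read -0.07, -0.34, -0.18 and -0.33 in WT replicates 1 to 4 and 0.21, 0.21, 0.22 and 0.31 in SIRT1 KO replicates 1 to 4 on probe A_52_P88695. The groups did not overlap, the log2 fold change was 0.46 (limma adjusted p = 0.0158, SE 0.08), and the call held in all 8 fits with a heart left out (adjusted p = 0.0164 to 0.0476 from limma). The *Dgka* call was lost with median scaling and without scaling between arrays (0.24, limma adjusted p = 0.112). *Dgkz*, a kinase with the same reaction, read 0.92, 0.84, 1.01 and 1.01 in WT replicates 1 to 4 and 1.37, 1.25, 1.17 and 1.32 in SIRT1 KO replicates 1 to 4 on probe A_51_P505156. All labelled SIRT1 KO hearts lay above all WT hearts, the log2 fold change was 0.33 (limma adjusted p = 0.0428, SE 0.08), and the call held in 1 of the 8 fits with a heart left out, that without SIRT1 KO replicate 3 (adjusted p = 0.0335 to 0.114 from limma). The *Dgkz* call was lost with median scaling (0.20, limma adjusted p = 0.125) and without scaling between arrays (0.11, limma adjusted p = 0.419). It was also lost without the filter on dim probes, with the methods' analysis of variance and with the replicate number as a block. The remaining kinases and lipases lay between -0.38 (*Dgkg*) and 0.37 (*Dgkd*).

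On the calcium branch, 10 genes of IP3 receptors and IP3 metabolism were tested, 6 higher and 4 lower, and none passed. With median scaling 3 were higher and 7 lower, and without scaling 1 and 9. *Itpr1*, an IP3 receptor of the endoplasmic reticulum, had 0.23 with no overlap of the groups (adjusted p = 0.189 from limma), or 0.01 without scaling, and 0.22 on its other probe, A_52_P118756 (adjusted p = 0.349 from limma). *Inpp5a*, a phosphatase that ends the IP3 signal, had -0.22 (adjusted p = 0.215 from limma), -0.14 without SIRT1 KO replicate 2 (adjusted p = 0.415), and -0.44 without scaling between arrays, where it passed the threshold.

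Diacylglycerol also acts on proteins other than protein kinase C, and 11 of 13 such genes were tested, 6 higher and 5 lower, with a median of 0.20 (-0.02 without scaling between arrays), 7 at an unadjusted p under 0.05 and 1 past the threshold. *Rasgrp4*, a Ras exchange factor known from mast cells, read -5.44, -5.93, -5.47 and -5.30 in WT replicates 1 to 4 and -4.93, -4.87, -4.58 and -3.95 in SIRT1 KO replicates 1 to 4 on probe A_52_P122572. It was well above background in 2 of 4 WT hearts and in 4 of 4 others, so it entered the test through the hearts in which it is high, and its fold change against WT hearts is uncertain. No labelled SIRT1 KO heart fell among the WT hearts, with a log2 fold change of 0.95 (limma adjusted p = 0.046, SE 0.22), and the call held in 1 of the 8 fits with a heart left out, that without SIRT1 KO replicate 4 (adjusted p = 0.0455 to 0.117 from limma). The *Rasgrp4* call was lost with quantile normalization, with median scaling, with cyclic loess, without the filter on dim probes, with the methods' analysis of variance and with an intensity trend, and it was kept at 0.45 with normexp. Its other probe, A_51_P227718, had 0.38 (adjusted p = 0.191 from limma). *Rasgrp1*, *Rasgrp2* and *Rasgrp3* had 0.27, 0.55 and 0.20, none past the threshold. *Unc13c*, a diacylglycerol-binding protein of synapses, had 0.45 (adjusted p = 0.143 from limma), or 0.23 without scaling, and passed with normexp (0.33).

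The last list held 22 tested anchors, substrates and regulators of protein kinase C, 11 higher and 11 lower, with 1 past the threshold and none when a gene was represented by its brightest probe in WT hearts. *Pdpk1*, the kinase that phosphorylates the activation loop of protein kinase C, read 1.79, 2.06, 1.69 and 2.13 in WT replicates 1 to 4 and 3.85, 3.89, 2.87 and 3.22 in SIRT1 KO replicates 1 to 4 on probe A_52_P111390. Every WT heart was lower, the log2 fold change was 1.54 (limma adjusted p = 0.0073, SE 0.23), and the call held in all 8 fits with a heart left out (adjusted p = 0.00613 to 0.0271 from limma). The *Pdpk1* call was lost with the methods' analysis of variance. Its other probes, A_52_P619138 and A_52_P111397, had 0.03 and 0.10 (adjusted p = 0.846 and 0.55 from limma), so 1 of 3 *Pdpk1* probes changed. A_52_P111390 stands for the gene through its level in the hearts labelled SIRT1 KO. *Cavin3*, a caveolar protein that binds protein kinase C delta, had -0.38 with all labelled SIRT1 KO hearts below all WT hearts (limma adjusted p = 0.053), and passed with median scaling (-0.51), with normexp (-0.40), without scaling between arrays (-0.60), with the filter on all 8 arrays, with an intensity trend, with array weights and without SIRT1 KO replicate 3.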

How the data were processed

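Gene expression of 8 E18.5 mouse hearts, 4 per genotype, was measured from 500 ng of total RNA each on Agilent Whole Mouse Genome arrays in 1 color. The authors deposited, per array, the intensity of every spot from Agilent Feature Extraction (12.0.0.7 per the file headers, 12 per the labels), after background subtraction and error modeling and not scaled between arrays. The methods' test was an analysis of variance with Benjamini-Hochberg correction, repeated here probe by probe as an alternative.

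Here log2 of the processed signal was taken, the 75th percentile of all non-control spots of an array was subtracted, and spots of a probe were averaged without outlier spots. Accessions were matched to RefSeq names (GRCm38.p6), which named 28223 of 41174 probes and left 12951 unnamed. The 25616 probes that stood above background on 4 or more of the 8 arrays entered limma 3.58.1 in R 4.3.3 (lmFit, eBayes) and Benjamini-Hochberg adjustment over all of them at 0.05. Tables were handled in pandas 2.3.3 and numpy 2.4.6 under Python 3.11.15, permutation tests used scipy 1.17.1 and plots matplotlib 3.10.9. A gene outside the 9 members is given by its brightest tested probe. The number of arrays limits the precision, with a median standard error of 0.11 over all tested probes.

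The members and gene lists were chosen with earlier results of these data known. Genes named are all members with every probe, list genes past the threshold, the 2 with the smallest p in each list, *Sirt1*, and the 3 closest genes of 3 members. Genes named outside this rule (*Gnaq*, *Gna11*, *Dgkg*, *Dgkd*, *Prkci*, *Prkcz*, *Prkd1*, *Prkd2*, *Rasgrp1*, *Rasgrp3*, *Xist*, *Ddx3y* and the single cell type markers) were chosen after their values were seen. On simulated arrays with 200 of 25535 probes changed by a log2 fold change of 1, limma recovered 83%, each with the correct sign, while 6.74% of the probes it called had not been changed. Alternatives covered scaling, background correction, filter, test, replicate block, threshold, probe of a gene, and each array left out. Probe sequences, proteins and some genes of the lists are not reported here.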

Additional observations from a re-analysis of the deposited data

Results flagged for a closer look

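Of 66 groups of 4 hearts examined for the named probes, 7 held a heart whose distance to its nearest neighbor took up more of the range of the group than the 95% critical value of Dixon's test for 4 samples, and chance gives about 1 in 20 such groups. Among the members, SIRT1 KO replicate 4 was low on the *Prkcb* probe A_52_P51355 (-2.65 against -2.37 to -2.36, share 0.934). WT replicate 2 was low on the *Prkcd* probe A_51_P460734 (0.23 against 0.39 to 0.41, share 0.888). WT replicate 1 was low on the *Prkch* probe A_51_P355852 (-1.76 against -1.60 to -1.59, share 0.927).

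Among the other pathway genes, SIRT1 KO replicate 4 was low for *Adra1d* (-3.47 against -3.23 to -3.18, share 0.837) and high for *Dgka* (0.31 against 0.21 to 0.22, share 0.868). WT replicate 1 was high for *Prkcq* (-3.05 against -4.13 to -4.03, share 0.905). SIRT1 KO replicate 2 was low for *Inpp5a* (2.60 against 2.87 to 2.93, share 0.835).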

How the results depend on the processing

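For the member probes, 259 alternative values were computed, of which 214 kept their direction and their side of the threshold. The count of member probes past the threshold and lower, 1, became 0 with normexp on the median signal, without the filter on dim probes, with the methods' analysis of variance and with an intensity trend, and was 0 to 1 with a heart left out. The count higher, 0, became 1 with normexp (*Prkce* A_52_P375455). Of the pathway genes, 7 were higher, against 3 with quantile normalization, 3 with median scaling, 4 without scaling, 4 with cyclic loess, 11 with normexp, 3 without the filter, 1 with the analysis of variance, and 2 to 7 with a heart left out. None was lower, against 1 with quantile normalization, 6 with median scaling, 26 without scaling, 3 with normexp, 1 with the filter on all 8 arrays, 1 with an intensity trend, 2 with array weights, 3 at an adjusted p of 0.1, 1 with the mean of a gene's probes, and 0 to 2 with a heart left out. With the replicate number as a block, 5 were higher and 2 lower, the calls of *Gna15*, *Adra1d*, *Dgkz* and the brighter *Sirt1* probe were lost (adjusted p = 0.0559, 0.0658, 0.079 and 0.0645 from limma), *Prkcq* passed (adjusted p = 0.0473 from limma), and the *Plcb1* probe A_52_P18262 kept its call. Same-numbered hearts correlated by 0.06 to 0.21 after the genotype means were removed, not all above 0.1, so the numbers were not taken as pairs, although all 8 arrays correlated best with their own number. With the block, 949 probes were higher and 236 lower over the whole array. Of all calls 81.4% were higher, against 63.9% with quantile normalization, 38.1% with median scaling, 10% without scaling and 70.5% with cyclic loess.

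Directions turned as follows, and the cause was not tested. With normexp, *Plcb1* A_52_P351574 had 0.011, *Plcb4* 0.091, *Prkce* A_52_P31593 0.18, *Prkch* 0.083 and *Gna14* 0.12. With median scaling, *Plcb2* had -0.10, *Prkca* -0.055, *Prkcb* -0.10, *Prkcd* A_51_P460734 -0.013 and A_52_P197498 -0.053. Without scaling, *Plcb2* had -0.19, *Prkca* -0.15, *Prkcb* -0.20, *Prkcd* A_51_P460734 -0.10 and A_52_P197498 -0.14, *Prkce* A_51_P352782 -0.0094, *Pip5k1c* -0.0085 and *Prkd3* -0.061. With quantile normalization, *Plcb2* had -0.019 and *Prkcb* -0.052, with cyclic loess -0.0037 and -0.033, and *Prkch* had 0.011 with array weights. With a heart left out, *Plcb2* ranged from -0.039 to 0.10, *Plcb4* from -0.12 to 0.023, *Prkca* from -0.015 to 0.12, *Prkcb* from -0.089 to 0.10, *Prkcd* A_52_P197498 from -0.0086 to 0.12, *Prkce* A_52_P31593 from -0.13 to 0.070 and *Prkch* from -0.085 to 0.093. The probe brightest in WT hearts and the normexp setting on the median signal were chosen after seeing the data, and normexp on the mean signal, planned earlier, was not run.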

Other observations

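Other marker lists are given as the log2 of the summed signal of their tested genes, in which the brightest genes weigh most. No gene of any list was past the threshold. Endothelial markers lay at 5.22 to 5.43 in WT hearts and 5.04 to 5.31 in the hearts labelled SIRT1 KO, with 6 of 6 genes lower. Fibroblast markers lay at 7.39 to 7.63 and 7.46 to 7.62, with 3 of 5 higher. Platelet markers lay at 2.02 to 2.55 and 1.76 to 2.21, with 5 of 5 lower. Erythroid markers lay at 7.78 to 8.03 and 7.44 to 7.75, with 3 of 4 tested genes lower. Liver markers lay at 1.75 to 3.46 in WT hearts and reached 5.59 in the others, with 3 of 3 genes higher, and none of 3 lung markers was tested. Of 5 neuron markers 3 were tested, at -1.37 to -0.99 and -1.38 to -1.05, and *Th* and *Snap25* were above background on no array.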
